A study of Rattus norvegicus with 47 samples.

Results

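Endothelial cells line every blood and lymph vessel, and the 36 genes followed here mark them in the lung. They are the whole of a list of named markers and were taken by gene name from 30045 gene rows in each of 2 lung tables. By their known use as markers 22 are pan-endothelial, 6 capillary, 1 venous, 3 arterial and 4 lymphatic. Several are also made by platelets or other blood cells, and the blood libraries of the same series are used below to show which.

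The series compared healthy male Fischer 344 rats, an inbred strain, that breathed crystalline silica (Min-U-Sil 5, a fine quartz dust) or filtered air in whole-body chambers. Exposure was to 15 mg/m3, 6 hours daily over 5 days, and the animals were killed 1 day or 6 months after it. The lung groups were silica at 1 day (6 rats), air at 1 day (6), silica at 6 months (6) and air at 6 months (5), which are 23 of 47 libraries. Whole blood made up the other 24. Both times share the strain, sex and exposure, and age is not given in the labels. Total estimated counts per library were 13.0e6 to 16.7e6 for silica and 12.1e6 to 25.9e6 for air at 1 day, and 12.8e6 to 19.8e6 for silica and 12.1e6 to 13.6e6 for air at 6 months. Levels are given as CPM, counts scaled to each library's size by TMM factors, and are compared within a gene only, since they are not per length.

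The wall of the lung's alveoli holds a sheet of capillary endothelium held together by cadherin and claudin junctions. Vascular endothelial growth factor (VEGF) acts on it through Kdr and Flt1, angiopoietins through Tek, bone morphogenetic protein 9 through Acvrl1 and Eng, and adrenomedullin through Calcrl with Ramp2. In mouse lung, Car4 and Ednrb mark the large gas-exchange capillary cells called aerocytes, and Aplnr and Plvap mark the general capillary cells between them.

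Some of the endothelial genes were lower in silica lung at 1 day and most of them at 6 months, by small amounts, and none was higher past the test. Of 35 members tested at 1 day, 11 fell and 0 rose past an adjusted p of 0.05 in edgeR's quasi-likelihood test. Among all 15331 genes tested 5.72% fell and 8.39% rose. At 6 months 24 of 35 fell and 0 rose, beside 6.38% and 9.84% of 15309 genes. DESeq2 called 13 falls at 1 day and 26 at 6 months, limma-voom 11 and 24, and both called 0 rises. The median log2 fold change of silica over air was -0.12 in the members and -0.0024 in all genes at 1 day, and -0.26 and -0.008 at 6 months. The members' median at 6 months amounts to -16.2%, with single members between -7.49% and -29.5%. These levels are relative to all RNA of a library. In bulk lung, fewer endothelial cells, less RNA per endothelial cell and more RNA from other cells cannot be told apart.

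At 6 months all 35 members had a negative log2 fold change, and at 1 day 31 did. The other 4 at 1 day, Bmx, Sox18, Flt4 and Ptprb, did not pass the test. Every silica library lay below every air library for 16 members at 6 months, where 3.5% of all genes tested did so, and for 3 members (Ramp2, Car4 and Ednrb) at 1 day, where 2.75% did. In all, 10 members fell at both times (28.6% of the members, beside 2.09% of 15154 genes tested at both). They were Pecam1, Cldn5, Esam, Tek, Ramp2, Calcrl, Clec14a, Thbd, Car4 and Ednrb. Another 14 passed at 6 months alone, and Emcn alone passed at 1 day and not at 6 months.

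The log2 fold change was lower at 6 months than at 1 day in 32 of the 35 members, and lower at 1 day in Cldn5, Emcn and Mmrn1. The difference between the times was tested as an interaction over the 4 lung groups. Of the 36 members 0 passed in edgeR, DESeq2 or limma-voom. In edgeR 8 of the 36 had an unadjusted p under 0.05, as did 2138 of all 15786 genes. Of all 15786 genes, 0.253% had a log2 fold change that was lower at 6 months past the threshold, and 1.12% one that was higher. The smallest adjusted p in edgeR's test were 0.139 for Eng (difference -0.24 ± 0.079, SE), 0.173 for Mmrn2 (-0.20 ± 0.069) and 0.182 for Bmx (-0.46 ± 0.16). A larger fall of any one member at 6 months than at 1 day was therefore not shown.

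Summed over the 36 genes, the level averaged 12937 ± 462 CPM in silica lung and 14120 ± 494 CPM in air lung at 1 day (SD, n = 6 each). The 6 months sum averaged 11961 ± 733 CPM in silica lung (n = 6) and 14327 ± 741 CPM in air lung (n = 5). The groups overlapped at 1 day, with silica libraries from 12317 to 13613 CPM and air libraries from 13340 to 14685 CPM. At 6 months silica libraries ran from 10724 to 12793 CPM and air libraries from 13452 to 15251 CPM, and did not overlap.

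**Figure D1:**
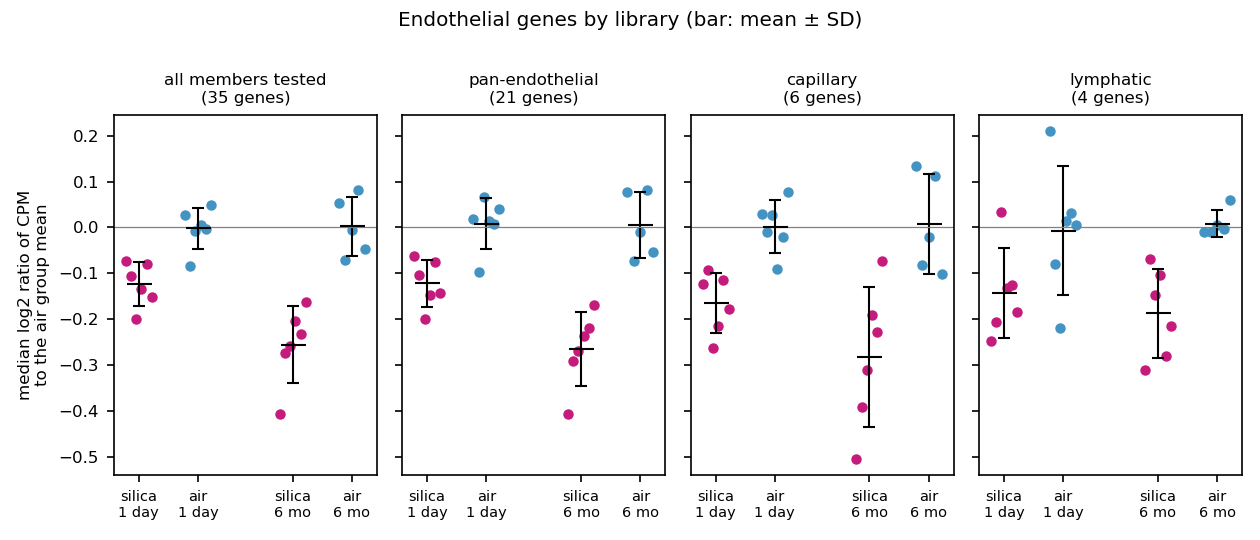
Median over members of the log2 ratio of CPM to the air mean, by library, for all 35 members tested and for the pan-endothelial, capillary and lymphatic ones; points are rats, bars the mean ± SD, silica left of air at each time. In the panel of all 35 members, the silica rats at 6 months lie between -0.41 and -0.16 and the air rats between -0.07 and 0.08. In the capillary panel the groups overlap at 6 months (silica rats -0.50 to -0.07, air rats -0.10 to 0.13).

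The libraries of a group were not alike. At 6 months silica rat 58 had the lowest median ratio (-0.41) and was the lowest silica library for 23 of 35 members, while silica rat 64 had the highest (-0.16). Rat 58 also had the highest sums of alveolar type 2 cell markers (38643 CPM), macrophage markers (714 CPM) and leukocyte markers (1456 CPM) of the silica group. It had the lowest sums of alveolar type 1 (4961 CPM), smooth muscle (348.5 CPM), red-cell (3140.5 CPM) and platelet markers (18.0 CPM). Among the related lists given below, it was also lowest for the aerocyte, venous, arterial, ligand and wider endothelial genes. It was not lowest for the general capillary (1027.3 CPM), lymphatic (930.66 CPM), endothelial factor (1178.8 CPM) or activated endothelium lists (628.89 CPM). Nor was it lowest for pericyte or fibroblast markers. Without rat 58, 22 members fell and the median log2 fold change was -0.23. At 1 day silica rat 45 had the lowest median ratio (-0.20), and air rat 38 (-0.08) lay among the silica libraries. The count of members that fell at 1 day depended on single libraries. It was 6 without silica rat 46, 7 without silica rat 45, silica rat 48 or air rat 42, and 15 without silica rat 43. At 6 months it lay between 18 and 26 over all libraries left out in turn.

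Among the pan-endothelial genes of cell junctions and the cell surface, Pecam1, Cldn5, Esam and Clec14a fell at both times, and Cdh5 and Podxl at 6 months. Pecam1, an adhesion molecule of endothelial junctions also carried by platelets and leukocytes, averaged 292 ± 17.2 CPM in silica lung and 333 ± 19.7 CPM in air lung at 1 day. Its 6 months mean was 282 ± 14.3 CPM in silica lung and 337 ± 15.4 CPM in air lung, with no overlap. It fell at both times, with log2 fold changes of -0.19 ± 0.047 and -0.26 ± 0.042 (SE; edgeR adjusted p = 0.0133 and 0.00166).

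Cldn5, the main claudin of endothelial tight junctions, had the largest fall of the 35 members at 1 day. Silica libraries ran from 337 to 453 CPM (median 383) and air libraries from 437 to 598 CPM (median 490.0), and 1 silica rat, rat 43, lay above the lowest air rats. Its log2 fold change was -0.35 ± 0.083 (adjusted p = 0.0106), or -21.7%. At 6 months it was -0.23 ± 0.062 (adjusted p = 0.0244) with no overlap, and the call was lost without air rat 49 (adjusted p = 0.0583).

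Cdh5, the cadherin of adherens junctions, was not called at 1 day (log2 -0.09 ± 0.042) and fell at 6 months to 437 ± 26.4 CPM in silica lung, against 511 ± 29.9 CPM in air lung (log2 -0.23 ± 0.049, adjusted p = 0.00806). Esam, an adhesion molecule at the same contacts, fell at 6 months (log2 -0.19 ± 0.036, adjusted p = 0.00421). Its fall at 1 day (log2 -0.11 ± 0.035, adjusted p = 0.045) was lost when any 1 of 9 libraries was left out (silica rats 44, 45, 46 or 48, or air rats 37, 39, 40, 41 or 42), and also without the filter on low counts and with 1 surrogate variable (adjusted p up to 0.0609). Clec14a, a lectin-like surface protein of endothelium, fell at both times (log2 -0.19 ± 0.052 and -0.27 ± 0.065). Its 1 day call was lost without silica rat 45, 46 or 48 or air rat 37 or 42. Podxl, a sialomucin of the vessel lumen that also coats podocytes, fell at 6 months (log2 -0.28 ± 0.069, adjusted p = 0.0148) and was -0.06 ± 0.050 at 1 day.

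Of the angiopoietin receptor genes, Tek fell at both times and Tie1 at 6 months. Tek, the receptor of the angiopoietins, ran at 6 months from 614 to 723 CPM in silica rats (median 656), against 831, 768, 836, 926 and 837 CPM in the air rats. The groups did not overlap, and the log2 fold change was -0.34 ± 0.055 (adjusted p = 0.00153). At 1 day Tek averaged 708 ± 18.4 CPM in silica lung and 794 ± 55.2 CPM in air lung (log2 -0.17 ± 0.043, adjusted p = 0.017). Tie1, its partner without a known high-affinity ligand, fell at 6 months (log2 -0.21 ± 0.042, adjusted p = 0.00519) and was just outside the threshold at 1 day (log2 -0.12 ± 0.038, adjusted p = 0.0553). DESeq2, the fit of all 4 lung groups and the fits without silica rat 43, silica rat 47 or air rat 38 did call it at 1 day. Ptprb, the phosphatase that dampens Tek signalling, did not pass at either time (log2 0.01 ± 0.058 at 1 day, and -0.19 ± 0.066 at 6 months with adjusted p = 0.0658). DESeq2, the fit of all 4 lung groups and the fits without silica rat 61 or 64 called it at 6 months.

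The receptors for bone morphogenetic protein 9 fell at 6 months. Acvrl1, the type 1 receptor, had the smallest p of the pan-endothelial members at that time. It ran from 558 to 658 CPM in silica rats (median 627), against 784, 720.0, 741, 795 and 742 CPM in air rats. No silica rat reached an air rat, and the log2 fold change was -0.30 ± 0.046 (adjusted p = 0.00122). At 1 day it was -0.11 ± 0.045 (adjusted p = 0.109), and it passed there without silica rat 43 (adjusted p = 0.0446).

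Eng, the co-receptor endoglin, averaged 700.5 ± 51.5 CPM in silica lung and 888 ± 71.7 CPM in air lung at 6 months (log2 -0.34 ± 0.061, adjusted p = 0.00261), and its log2 fold change at 1 day was -0.09 ± 0.046. Its promoter is shown because Eng had the smallest interaction p of the members. The 250 bases before the start of Eng (RefSeq, GRCr8, chr3:36332029-36332278, plus strand, 5′ to 3′) hold AGGAAG, a core bound by the ETS factors to which Erg belongs, once on each strand, in capitals.
Eng: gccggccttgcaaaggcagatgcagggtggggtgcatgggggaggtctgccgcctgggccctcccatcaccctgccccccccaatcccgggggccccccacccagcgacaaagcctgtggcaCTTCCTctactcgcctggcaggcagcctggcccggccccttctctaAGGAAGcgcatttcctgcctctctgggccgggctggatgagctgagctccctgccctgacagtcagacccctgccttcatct

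Adrenomedullin signals through Calcrl, a G protein-coupled receptor, together with the accessory protein Ramp2. Ramp2 had the smallest p of the pan-endothelial members at 1 day. It ran from 248 to 284 CPM in silica rats (median 263) and from 292 to 358 CPM in air rats (median 310.0). The ranges did not meet, and the log2 fold change was -0.26 ± 0.047 (adjusted p = 0.00202). At 6 months Ramp2 averaged 238 ± 21.4 CPM in silica lung and 298 ± 18.9 CPM in air lung (log2 -0.32 ± 0.062, adjusted p = 0.00404).

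Calcrl fell at 6 months to 599.7 ± 28.6 CPM in silica lung, against 739 ± 58.1 CPM in air lung (log2 -0.30 ± 0.052, adjusted p = 0.00212). Its 1 day fall (log2 -0.18 ± 0.056, adjusted p = 0.0429) was lost without any 1 of 8 libraries (silica rats 44, 45, 46 or 48, or air rats 37, 40, 41 or 42), and also without the filter on low counts and with 1 surrogate variable (adjusted p up to 0.0573). The ligand Adm was not called at either time (log2 0.38 ± 0.14 at 1 day and -0.25 ± 0.10 at 6 months). The promoter of Calcrl (RefSeq, GRCr8, chr3:89932617-89932866, minus strand, 5′ to 3′) is shown as 1 of 4 member promoters with AACAAT, a core bound by SOX factors such as Sox17 and Sox18. It occurs once on each strand, in capitals.
Calcrl: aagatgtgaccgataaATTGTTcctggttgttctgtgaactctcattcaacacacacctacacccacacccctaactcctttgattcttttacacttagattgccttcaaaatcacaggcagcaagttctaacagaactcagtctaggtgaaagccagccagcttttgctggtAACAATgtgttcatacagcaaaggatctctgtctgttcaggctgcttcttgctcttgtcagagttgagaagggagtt

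Clotting and vessel tone are represented by Thbd and Nos3. Thbd, thrombomodulin, which turns thrombin towards protein C activation, ran from 944 to 1118 CPM in silica rats (median 1015) and from 1089 to 1249 CPM in air rats (median 1182) at 1 day. Its 6 months range was 889 to 962 CPM in silica rats (median 941), against 1171, 1103, 1209, 1186 and 1022 CPM in air rats. The ranges overlapped at 1 day and were apart at 6 months. The log2 fold changes were -0.20 ± 0.043 and -0.28 ± 0.044 (adjusted p = 0.0057 and 0.00122). Nos3, the endothelial nitric oxide synthase, ran from 12.2 to 18.6 CPM in silica rats and from 16.1 to 19.4 CPM in air rats at 6 months (log2 -0.26 ± 0.10, adjusted p = 0.107), and it passed at that time only without silica rat 60 (adjusted p = 0.0368).

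Flt1, the VEGF receptor known as a decoy, was not called at 1 day (log2 -0.02 ± 0.051) and fell at 6 months (log2 -0.18 ± 0.049, adjusted p = 0.0248). The 6 months call was lost without air rat 53 (adjusted p = 0.0533). Mmrn2, a matrix glycoprotein of the endothelium, fell at 6 months (log2 -0.31 ± 0.059, adjusted p = 0.00349). Egfl7, a secreted vessel protein, fell too (log2 -0.35 ± 0.091, adjusted p = 0.0211), and its call was lost without air rat 49 (adjusted p = 0.0534). At 1 day Mmrn2 (log2 -0.11 ± 0.038) was called only without silica rat 43 or air rat 38, and Egfl7 (log2 -0.15 ± 0.081) was not called. Robo4, a receptor of the roundabout family, averaged 0.38 CPM in silica lung and 0.555 CPM in air lung at 1 day, from at most 29 counts in a library, and was left out of the tests by time for low counts. Whether its gene model in the annotation takes up its reads was not tested, so its value is no measure of how strongly the lung makes it.

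Of the transcription factors among the pan-endothelial members, Erg was called at 6 months and Sox18 and Tal1 at neither time. Erg, an ETS factor that maintains endothelial identity, fell at 6 months to 122 ± 12.6 CPM in silica lung, against 143 ± 10.8 CPM in air lung (log2 -0.23 ± 0.071, adjusted p = 0.043). That call was lost without any 1 of 8 libraries (silica rats 58, 59, 60 or 62, or air rats 49, 52, 53 or 54), and also without the filter on low counts and with 1 surrogate variable (adjusted p up to 0.0632). At 1 day Erg was called only without air rat 39 (adjusted p = 0.0355). Sox18 was above air at 1 day (99.4 ± 10.9 CPM in silica lung and 89.5 ± 11.5 CPM in air lung) and below it at 6 months (75.8 ± 14 CPM and 81.9 ± 20.9 CPM), both within the spread of the libraries (adjusted p = 0.281 and 0.693). Tal1, a factor of endothelial and blood-forming cells, was -0.06 ± 0.051 at 1 day and -0.25 ± 0.10 at 6 months (adjusted p = 0.51 and 0.124), and the fit of all 4 lung groups called it at 6 months (adjusted p = 0.0428). Of 11 further endothelial factors tested, 1 fell at 1 day and 2 at 6 months, with 0 rises. Among all genes tested 5.72% fell at 1 day and 6.38% at 6 months. Whether the 11 factors fell more often than other genes was not tested. Gata2 fell at both times (log2 -0.24 ± 0.071 and -0.27 ± 0.070), its 1 day call being lost without any 1 of 8 libraries, and Ets1 fell at 6 months (log2 -0.29 ± 0.068).

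**Figure D2:**
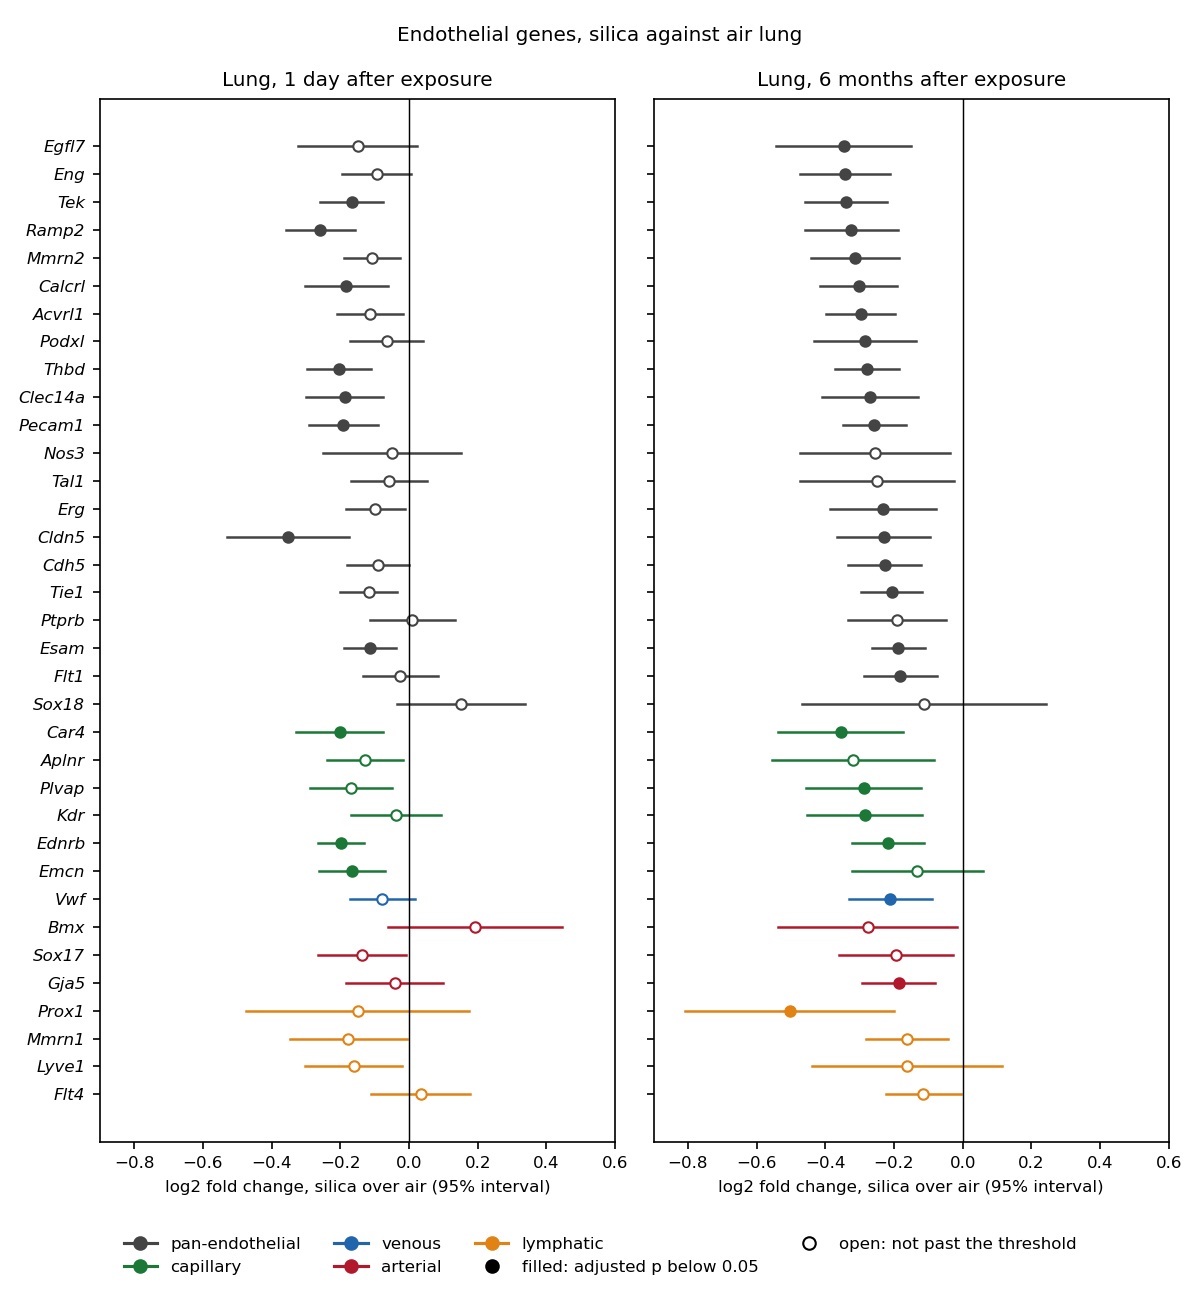
Log2 fold change of silica over air with its 95% interval for 35 members, by vessel class and ordered within a class by the 6 months value, at 1 day (left) and 6 months (right). Filled points passed an adjusted p of 0.05 (11 at 1 day and 24 at 6 months), and all points at 6 months lie left of 0.

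All 6 capillary members had negative log2 fold changes at both times, with medians of -0.17 at 1 day and -0.29 at 6 months; 3 fell at 1 day and 4 at 6 months. Of the aerocyte markers, Car4, a carbonic anhydrase on the capillary surface, ran at 1 day from 101 to 118 CPM in silica rats (median 114) and from 118 to 149.6 CPM in air rats (median 123), the ranges not meeting although both edges round to 118 CPM. Its 6 months values ran from 87.5 to 119.6 CPM in silica rats (median 97.1), against 140.5, 120.0, 123, 139.7 and 109.9 CPM in air rats. One high silica rat and one low air rat made the groups overlap at 6 months. Car4 fell by 0.20 ± 0.059 at 1 day and by 0.36 ± 0.084 at 6 months on the log2 scale (adjusted p = 0.0346 and 0.0128). The 1 day call was lost without silica rat 45, 46, 47 or 48 or air rat 42, and in the fit of all 4 lung groups (adjusted p = 0.0561).

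Ednrb, the endothelin B receptor, had the smallest SE of the 11 members that fell at 1 day. It ran from 316 to 352 CPM in silica rats (median 329) and from 363 to 393 CPM in air rats (median 377). The ranges were apart, and the log2 fold change was -0.20 ± 0.031 (adjusted p = 0.000758). At 6 months the range was 292 to 344 CPM in silica rats (median 314), against 361, 376, 367, 403 and 338 CPM in air rats (log2 -0.22 ± 0.049, adjusted p = 0.00915). Air rat 54 had the 338 CPM that lay within the silica range. Both calls held whichever library was left out. The ligand Edn1 was not called (log2 0.15 ± 0.16 and -0.19 ± 0.15).

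Kdr, the main VEGF receptor and in mouse lung most abundant in aerocytes, was not called at 1 day, with 623 to 804 CPM in silica rats (median 725) and 658 to 805 CPM in air rats (median 749). Its range at 6 months was 535 to 729 CPM in silica rats (median 608), against 799, 702, 710.3, 835 and 709 CPM in air rats. The highest silica rat passed 3 of the air rats. The fall of 0.28 ± 0.077 on the log2 scale passed (adjusted p = 0.0247) and was lost without silica rat 60 or air rat 49 or 53 (adjusted p up to 0.0633). Vegfa, its ligand, was not called at either time (log2 -0.08 ± 0.032 and -0.13 ± 0.063).

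Of the general capillary markers, Plvap, the protein of endothelial diaphragms, fell at 6 months only. It ran from 876 to 1193 CPM in silica rats (median 1105), against 1428, 1151, 1324, 1364 and 1354 CPM in air rats (log2 -0.29 ± 0.077, adjusted p = 0.0228). Air rat 51, at 1151 CPM, was the one air rat inside the silica range, and the call was lost without air rat 49 or 53 (adjusted p up to 0.0558). At 1 day Plvap ran from 1107 to 1369 CPM in silica rats (median 1141) and from 1245 to 1457 CPM in air rats (median 1304). The log2 fold change was -0.17 ± 0.056 (adjusted p = 0.0589), and without silica rat 43, the highest of its group, it passed (adjusted p = 0.00661). It also passed without air rat 40 (adjusted p = 0.0444) and in DESeq2. The promoter of Plvap (RefSeq, GRCr8, chr16:18231280-18231529, minus strand, 5′ to 3′) is shown as a capillary marker whose 250 bases hold AGGAAG at 2 places on one strand, in capitals.
Plvap: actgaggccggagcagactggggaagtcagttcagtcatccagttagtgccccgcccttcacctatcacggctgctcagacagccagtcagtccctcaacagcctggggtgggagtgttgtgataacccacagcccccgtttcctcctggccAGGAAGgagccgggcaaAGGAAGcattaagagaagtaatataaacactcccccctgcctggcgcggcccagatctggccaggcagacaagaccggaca

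Aplnr, the apelin receptor, ran from 177 to 216 CPM in silica rats (median 199) and from 197 to 227 CPM in air rats (median 216) at 1 day. The 6 months values lay from 131 to 202 CPM in silica rats (median 171), against 233, 193, 193, 222 and 204 CPM in air rats. The silica libraries were spread widely at 6 months, and neither time passed (log2 -0.13 ± 0.051 and -0.32 ± 0.11, adjusted p = 0.115 and 0.0642). DESeq2, the fit of all 4 lung groups and the fits without silica rat 62 or 64 called it at 6 months. Emcn, a mucin-like protein of capillaries and veins, fell at 1 day, with 94 to 110.2 CPM in silica rats (median 104) and 109 to 124 CPM in air rats (median 114; log2 -0.17 ± 0.045, adjusted p = 0.0227). That call was lost without silica rat 46 (adjusted p = 0.0538) and in the fit of all 4 lung groups (adjusted p = 0.0925). At 6 months Emcn ran from 76.5 to 93.2 CPM in silica rats (median 86.1), against 106, 94, 98.3, 98.4 and 69.6 CPM in air rats. Air rat 54 lay below every silica rat. With it the log2 fold change was -0.13 ± 0.088 (adjusted p = 0.344), and without it -0.22 (adjusted p = 0.0178).

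Other capillary markers from a wider list were mixed. Of 4 aerocyte genes besides the members, Chst1, a sulfotransferase, rose at both times (log2 0.52 ± 0.089 and 0.66 ± 0.12, every silica rat above every air rat), opposite in sign to Car4, Ednrb and Kdr. Apln, the apelin ligand made by aerocytes in mouse lung, fell at 6 months (log2 -0.23 ± 0.070, adjusted p = 0.04), a call lost without any 1 of 5 libraries. Of 5 further general capillary genes, 0 were called at 1 day, and Cd93, a surface receptor, fell at 6 months (log2 -0.18 ± 0.038). At 1 day 1 of the 5 had an unadjusted p under 0.05 in edgeR, as did 4282 of all 15331 genes.

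**Figure D3:**
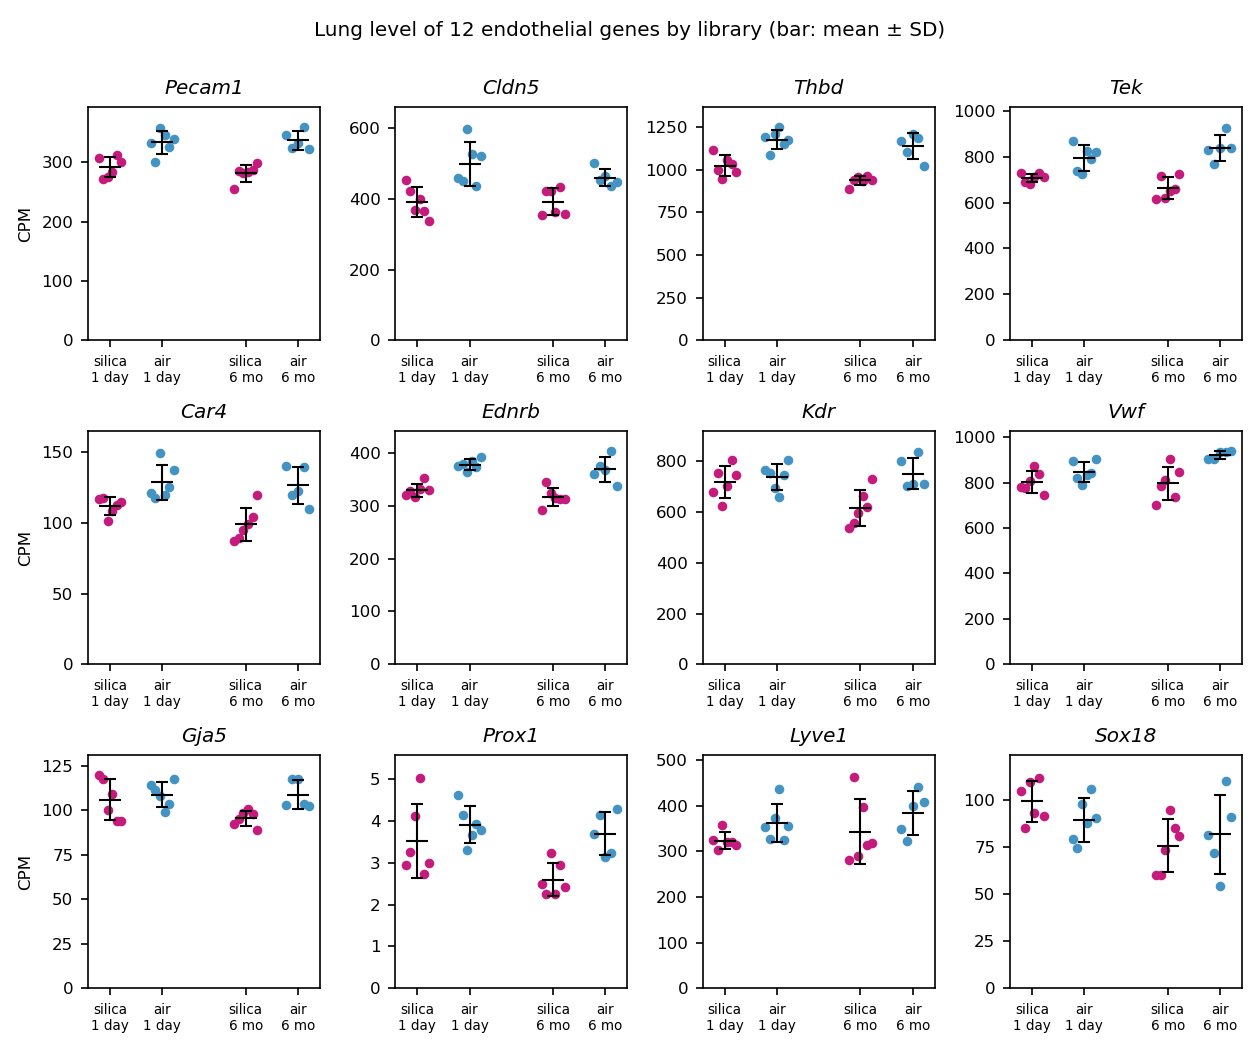
CPM by library of 12 members from every vessel class; points are rats, bars the mean ± SD, with silica left of air at each time and axes from 0. The silica and air ranges of Ednrb are apart at 1 day (316 to 352 CPM and 363 to 393 CPM), and those of Lyve1 and Sox18 overlap at both times.

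The venous class held 1 gene. Vwf, von Willebrand factor, which tethers platelets and is strongest in the endothelium of larger vessels and veins, ran at 1 day from 746 to 875 CPM in silica rats (median 793) and from 788 to 902 CPM in air rats (median 839). The groups overlapped and the gene was not called (log2 -0.08 ± 0.044, adjusted p = 0.275). At 6 months it ran from 702 to 903 CPM in silica rats (median 799), against 905, 903, 934, 933 and 937 CPM in air rats. The highest silica rat and the lowest air rat both round to 903 CPM, the silica rat being the lower. Vwf fell by 0.21 ± 0.056 on the log2 scale (adjusted p = 0.0225), and the call held whichever library was left out. Of 7 other venous genes tested, 2 fell at 1 day and 3 at 6 months, and 0 rose. At 1 day these were Prss23, a protease (log2 -0.16 ± 0.047), and Vegfc, a lymphatic growth factor (-0.23 ± 0.068). At 6 months they were Ephb4, the venous ephrin receptor (-0.25 ± 0.051), Nr2f2, a factor of venous identity (-0.25 ± 0.064), and Vegfc (-0.20 ± 0.059). The calls of Prss23 and Vegfc were lost without any 1 of 7 libraries each.

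Of the 3 arterial members 0 fell at 1 day in edgeR, DESeq2 or limma-voom, and 1 fell at 6 months. In edgeR 1 of the 3 had an unadjusted p under 0.05 at 1 day, as did 4282 of all 15331 genes. Gja5, the arterial gap junction protein connexin 40, ran at 1 day from 94.1 to 119.9 CPM in silica rats (median 105) and from 99 to 117 CPM in air rats (median 109.8). Its 6 months values ran from 89.2 to 101 CPM in silica rats (median 96.6), against 103, 118, 118, 104 and 102 CPM in air rats. The groups were apart by a narrow margin at 6 months (log2 -0.19 ± 0.049, adjusted p = 0.0211), and the call was lost without air rat 52 (adjusted p = 0.0515). The log2 fold change at 1 day was -0.04 ± 0.066.

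Sox17, a factor of arterial identity, ran from 47.3 to 57.5 CPM in silica rats (median 53.2) and from 50.5 to 62.3 CPM in air rats (median 57.6) at 1 day. At 6 months the range was 48.8 to 64.7 CPM in silica rats (median 58.7), against 65.9, 60.1, 65.3, 74.3 and 59.6 CPM in air rats. It overlapped at both times and was not called (log2 -0.14 ± 0.060 and -0.19 ± 0.077). Bmx, a kinase of arterial endothelium and of myeloid cells, was low, with 3.45 to 4.43 CPM in silica rats (median 4.23) and 2.81 to 4.57 CPM in air rats (median 3.53) at 1 day. Its range at 6 months was 2.65 to 3.9 CPM in silica rats (median 3.34), against 4.12, 4.22, 3.8, 3.82 and 3.87 CPM in air rats. Its log2 fold change was positive at 1 day (0.19 ± 0.12) and negative at 6 months (-0.28 ± 0.12), and neither passed (adjusted p = 0.322 and 0.14).

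Of 11 other arterial genes 0 were called at 1 day, with 0 at an unadjusted p under 0.05 in edgeR, and 4 fell with 0 rises at 6 months. Efnb2, the arterial ephrin, fell to 75.4 ± 7.33 CPM in silica lung, against 98.2 ± 5.09 CPM in air lung (log2 -0.38 ± 0.062, adjusted p = 0.00161), with no overlap. Jag1, a Notch ligand (-0.23 ± 0.065), Dkk2, a secreted Wnt modulator (-0.61 ± 0.18), and Gja4, the gap junction protein connexin 37 (-0.30 ± 0.092), fell with overlap. Their calls were lost without any 1 of 7, 4 and 9 libraries of 11, in that order.

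Of the 4 lymphatic members 0 fell at 1 day in the same tests and 1 fell at 6 months, and their median log2 fold change was -0.16 at both times. In edgeR 2 of the 4 had an unadjusted p under 0.05 at 1 day, as did 4282 of all 15331 genes. Prox1, the factor that sets lymphatic identity, was measured from few reads. At 1 day it had 2.73 to 5.02 CPM in silica rats (median 3.12) and 3.3 to 4.62 CPM in air rats (median 3.86). Its 6 months levels were 2.25 to 3.23 CPM in silica rats (median 2.45), against 3.68, 4.14, 3.14, 3.22 and 4.28 CPM in air rats, from 31 to 57 counts per silica library and 38 to 53 per air library. Its fall at 6 months was the largest of the members but imprecise (log2 -0.50 ± 0.14, 95% interval -0.81 to -0.20, adjusted p = 0.0281). It was lost without silica rat 58 or 59 or air rat 49, 51 or 54 (adjusted p up to 0.0644), and without the filter on low counts (adjusted p = 0.0544).

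Lyve1, a hyaluronan receptor of lymphatic vessels that lung macrophages also carry, ran from 303 to 359 CPM in silica rats (median 320.1) and from 324 to 437 CPM in air rats (median 355) at 1 day. The 6 months values lay from 281 to 464 CPM in silica rats (median 316), against 350.2, 323, 400.0, 442 and 409 CPM in air rats. Silica rat 59 was the highest of all rats at 6 months, and neither time was called (log2 -0.16 ± 0.066 and -0.16 ± 0.13). The 4 macrophage markers tested all rose at 6 months, and the part of macrophages in the Lyve1 level was not tested.

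Mmrn1, a glycoprotein of lymphatic endothelium and platelets, ran from 29.4 to 35.7 CPM in silica rats (median 34) and from 29.6 to 44.1 CPM in air rats (median 38) at 1 day. At 6 months it ran from 29.6 to 38 CPM in silica rats (median 34.6), against 37.7, 40.2, 37.1, 37.9 and 39 CPM in air rats. It was not called at either time (log2 -0.18 ± 0.079 and -0.16 ± 0.055, adjusted p = 0.162 and 0.0631), and passed at 1 day without air rat 39 and at 6 months without silica rat 59 or with upper-quartile factors. Flt4, the VEGF receptor of lymphatic vessels, ran from 28.2 to 34.2 CPM in silica rats (median 32.6) and from 26.4 to 35.7 CPM in air rats (median 31.9) at 1 day. Its 6 months values ran from 26.6 to 31.5 CPM in silica rats (median 29), against 32.3, 29.5, 32.7, 31.7 and 31.1 CPM in air rats. It was not called (log2 0.03 ± 0.068 and -0.11 ± 0.050). Of 6 other lymphatic genes tested, 2 fell and 1 rose at 1 day, and 0 fell and 1 rose at 6 months. Among all genes tested 5.72% fell and 8.39% rose at 1 day, and 6.38% fell and 9.84% rose at 6 months. In edgeR 1 of the 6 had an unadjusted p under 0.05 at 6 months, as did 4685 of all 15309 genes. Whether so few genes differ from the rest was not tested. Ccl21, the chemokine of lymphatic vessels, fell at 1 day (log2 -0.24 ± 0.051), as did Pdpn (-0.12 ± 0.038), which alveolar type 1 cells also make and whose call was lost without any 1 of 11 libraries. Nrp2, a co-receptor for VEGF-C also found on macrophages, rose at both times (log2 0.23 ± 0.050 and 0.15 ± 0.046). Its 6 months call was lost without any 1 of 8 libraries and with upper-quartile factors.

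**Figure D4:**
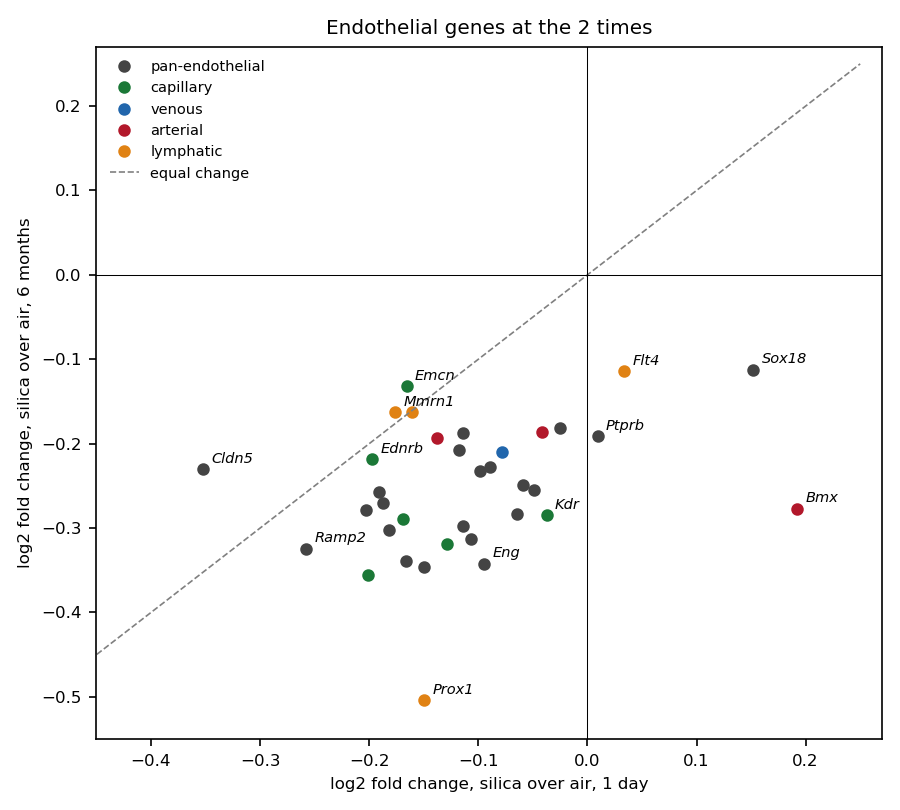
Log2 fold change of silica over air at 1 day (horizontal) and at 6 months (vertical) for 35 members, coloured by vessel class, with the line of equal change. Of these, 32 lie below the line, and Cldn5, Emcn and Mmrn1 above it.

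A wider list of endothelial genes that are no members was tested as well. Of 23 genes, 6 fell at 1 day and 15 at 6 months, with 0 rises, and their median log2 fold changes were -0.12 and -0.26. At 1 day the smallest p belonged to Cav1, a caveola protein that alveolar type 1 cells also make (log2 -0.27 ± 0.033), Palmd (-0.34 ± 0.056), Icam2, an adhesion molecule (-0.18 ± 0.030), and Ldb2 (-0.24 ± 0.048). At 6 months it belonged to Adgrl4, an adhesion receptor listed as Eltd1 (-0.24 ± 0.034), Cyyr1 (-0.33 ± 0.054), Palmd (-0.40 ± 0.069) and Icam2 (-0.26 ± 0.046). Besides Vegfc and Apln, given above with the venous and aerocyte genes, 12 ligands of the members' receptors were tested. Of these 1 fell at each time, Slit3 of the roundabout receptors (-0.13 ± 0.030 and -0.20 ± 0.056), and 0 rose. Of all genes tested, 5.72% fell at 1 day and 6.38% at 6 months. Robo4 itself was left out of the tests by time for low counts. The 6 months call of Slit3 was lost without any 1 of 6 libraries.

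Of 4 genes of activated endothelium, 2 rose and 0 fell at 1 day, where 8.39% of all genes tested rose. The summed level of the 4 overlapped between the groups (0.66% higher in silica lung). Icam1 and Vcam1 made up most of that sum (608.5 CPM in silica lung and 604.5 CPM in air lung). The sum therefore says little about the 2 genes that rose. Sele, E-selectin, a leukocyte-tethering receptor, rose to 4.21 ± 0.862 CPM in silica lung, against 1.58 ± 0.553 CPM in air lung (159.8% higher, adjusted p = 0.000656). The level of Sele was low, so this percentage rests on few reads. Selp, P-selectin, which platelets also carry, rose to 8.06 ± 1.56 CPM in silica lung, against 4.08 ± 1.18 CPM in air lung (95.1% higher, adjusted p = 0.00296). Every silica rat lay above every air rat for both, while Icam1 (log2 -0.04 ± 0.035) and Vcam1 (0.16 ± 0.065) were not called. At 6 months 0 of the 4 were called in edgeR, and Sele (0.07 ± 0.28) and Selp (0.04 ± 0.18) were near 0. In the same test 1 of the 4 had an unadjusted p under 0.05 at 6 months, as did 4685 of all 15309 genes. The difference between the times did not pass (interaction adjusted p = 0.0766 for Sele and 0.0951 for Selp). DESeq2 called it for both, and edgeR for Sele without silica rat 58.

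Other cell types moved at the same times, and their part in the endothelial falls was not tested. Alveolar type 1 markers summed to 5080 to 5182 CPM in silica rats and 5477 to 6038 CPM in air rats at 1 day, and to 4961 to 5604 CPM and 5649 to 6240 CPM at 6 months, changes of -11.0% and -10.1%; 3 of 5 fell at 1 day and 2 at 6 months. Of 7 pericyte markers 3 fell at 1 day and 0 at 6 months, with changes of their sum of -10.7% and -9.32%. All 5 smooth muscle markers had negative log2 fold changes at both times, with 0 called. Their sum changed by -9.54% and -18.1%, beside -8.38% and -16.5% for the members. Of 6 fibroblast markers 1 fell at 1 day and 2 at 6 months, with changes of their sum of -6.92% and -9.39%. Platelet markers summed to 17.9 to 21.4 CPM in silica rats and 20.6 to 23.7 CPM in air rats at 1 day. Their sum changed by -13.3% at 1 day, where 1 of 3 tested fell, and by -3.16% at 6 months, where 0 fell. All 5 proliferation markers rose at both times, and their sum changed by 143.8% and 73.35%. Alveolar type 2 markers summed to 31281 to 38643 CPM in silica rats and 21937 to 27628 CPM in air rats at 6 months, and 8 of 9 rose. Neutrophil markers summed to 276 to 636 CPM in silica rats and 101 to 227 CPM in air rats at 1 day, where 5 of 5 rose. At 6 months the neutrophil sum was 402 to 589.5 CPM in silica rats and 195 to 301 CPM in air rats, and 2 of 5 rose. Macrophage markers summed to 522 to 714 CPM in silica rats and 352 to 456 CPM in air rats at that time, a change of 48.3%, and leukocyte markers to 1160 to 1456 CPM and 976 to 1211 CPM, with 3 of 5 rising. Red-cell markers were lower in silica rats at 1 day (2832 to 3750.3 CPM, against 3765 to 5022 CPM in air rats, 4 of 5 fell), and overlapped at 6 months (3140.5 to 4898 CPM in silica rats and 4073 to 5792 CPM in air rats, 1 of 5 fell). Heart muscle markers, which in rodents the muscle of pulmonary veins also makes, summed to 31 to 217 CPM in silica rats and 11.9 to 445 CPM in air rats at 6 months, with Nppa at 0. With globin, erythroid and heart muscle genes left out of the scaling factors, the members' counts and medians moved by less than 1.5 times.

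Blood was used only to show which members other cells make. At 1 day 15 of 36 members averaged at least 1 CPM over the 12 blood libraries, and 7 at least 10 CPM. Tal1 averaged 46.2 CPM in lung and 80.4 CPM in blood, Mmrn1 35.8 CPM in lung and 71.5 CPM in blood, and Bmx 3.84 CPM in lung and 10.7 CPM in blood. These are the members higher in blood than in lung, and none of them was called in lung at either time. Vwf averaged 825 CPM in lung, against 109 CPM in blood, and Pecam1 313 CPM in lung, against 53.8 CPM in blood. Cldn5 averaged 444 CPM in lung and had at most 2 counts in any blood library.

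**Figure D5:**
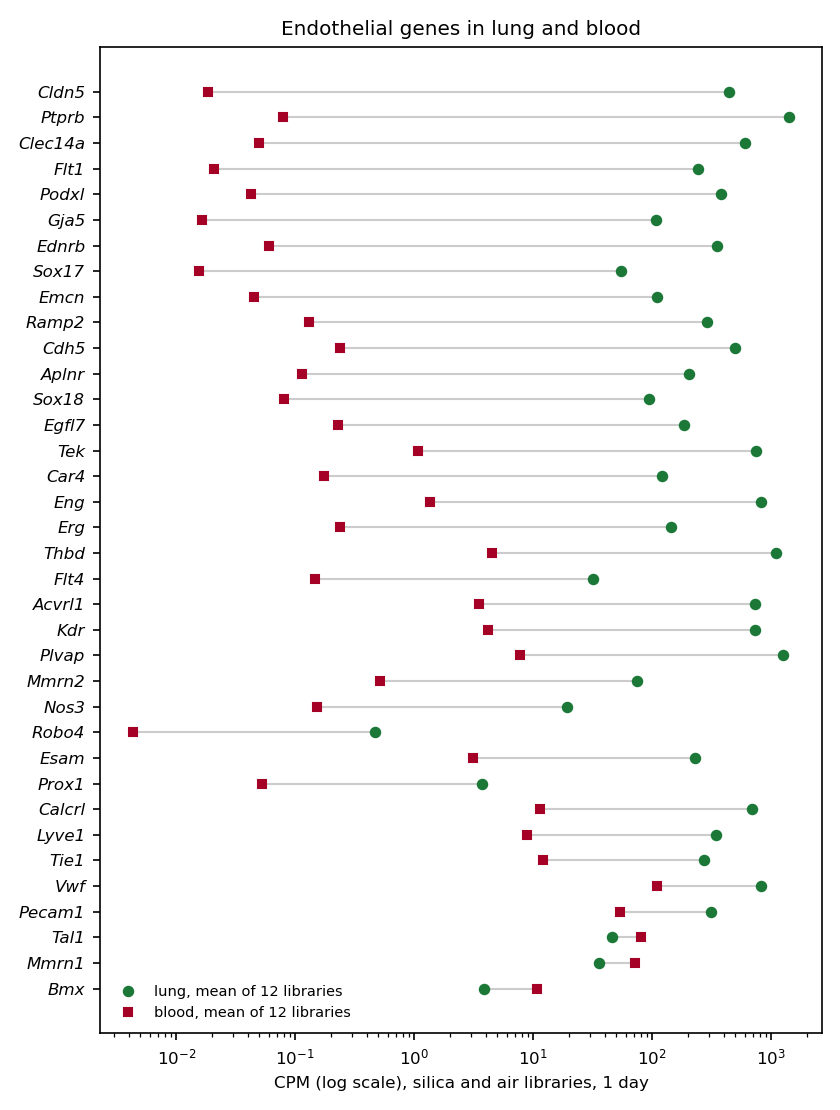
Mean CPM at 1 day of the 36 members in 12 lung libraries (circles) and 12 blood libraries (squares), silica and air together, on a log axis, ordered by the ratio of lung to blood. Tal1, Mmrn1 and Bmx are higher in blood. The order at the far end rests on a few counts in blood.

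The RefSeq table of promoters held 23 of the 36 members, with 24 promoters (Egfl7 has 2). Each motif was searched on both strands of the 250 bases before the start. AGGAAG stood in 14 of 24 (58.3%) and in 29.5% of 33469 promoters, and CCGGAA, another ETS core, in 1 (Kdr, 4.17%) and 12.6%. The SOX core AACAAT stood in 4 (16.7%) and in 10.3% of all promoters. A second SOX core, ACAAAG, stood in 4 (16.7%) and in 16.3%. The 4 with AACAAT were Calcrl, Emcn, Erg and Podxl.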

How the data were processed

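RNA of whole lung tissue was sequenced in 23 libraries and whole blood in 24. Per the labels' protocols, a fibrous-tissue kit was used for lung RNA, blood RNA was cleared of globin messages, and libraries were stranded and poly(A)-selected. Tools in the submitters' processing notes include STAR 2.6.1d and Salmon 1.10.1 with the build Rnor_6.0; Trim Galore 0.6.7, cutadapt 3.4 and bcl2fastq 2.19 are also listed. The deposited tables hold the authors' estimated counts per gene, not normalized, which were rounded to whole numbers here. 266 gene names stood on more than 1 line, none of them a member's.

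Silica was tested against air within each lung table by the quasi-likelihood test of edgeR 4.0.16 (R 4.3.3). Libraries were scaled with TMM, genes kept by filterByExpr at a minimum count of 10, and p-values adjusted over all genes kept by Benjamini-Hochberg, with a threshold of 0.05. The SE was taken as |log2 fold change| divided by the square root of F. The interaction was fitted over 4 lung groups. The scripts were tested on simulated data. Replicates differed by more than sampling noise (chi-square per degree of freedom 4.56 to 14.3), so no library was counted as a copy. The labels give neither chambers nor batches, so treatment and chamber cannot be told apart.

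The members and lists were chosen with earlier results of these data known. All 36 members are named; values by library (the range and median for groups of 6 rats) are given for the 3 pan-endothelial members with the smallest p at each time and for every capillary, venous, arterial and lymphatic member, and of each related list at most 4 called genes are named. Of 201 listed genes 3 were not found and 3 were found by an older symbol. Alternatives were DESeq2 1.42.0, limma-voom (limma 3.58.1), RLE and upper-quartile factors, TMM factors without globin, erythroid and heart muscle genes, a minimum count of 50, no filter, robust dispersion, 1 surrogate variable (sva 3.50.0), all 4 lung groups in 1 fit, gene models summed, and each library left out.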

Additional observations from a re-analysis of the deposited data

Results flagged for a closer look

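Of 164 groups of member values and class sums examined, 6 held a rat that stood apart from the others of its group, and chance gives about 1 in 20. Air rat 39 had 841.9 CPM of Acvrl1 at 1 day, where the next air rat had 768.1 CPM. Silica rat 43 had 1369 CPM of Plvap at 1 day, with 1195 CPM in the next silica rat. Air rat 53 had 297.4 CPM of Flt1 at 6 months, with 265.4 CPM in the next air rat, and air rat 49 had 216.5 CPM of Egfl7, with 185.7 CPM in the next. The summed lymphatic members reached 431.53 CPM in silica rat 45 and 510.15 CPM in air rat 40 at 1 day, with 390.28 and 437.64 CPM in the next rats of those groups. Most of both sums was Lyve1 (359 CPM in silica rat 45 and 437.1 CPM in air rat 40).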

How the results depend on the processing

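No member rose under any alternative run, and no member passed the interaction under any. The members that fell numbered 9 to 13 at 1 day and 22 to 27 at 6 months under the other tests, scalings, filters and covariates, and 6 to 15 and 18 to 26 with each library left out in turn. Their median log2 fold change lay between -0.13 and -0.10 at 1 day and between -0.27 and -0.23 at 6 months with each library left out. Members with every silica library below every air library numbered 3 to 7 at 1 day and 16 to 20 at 6 months with each library left out, where fewer samples make it easier for groups to be apart. DESeq2 called 351 genes in the interaction, against 217 in edgeR, and the cause was not tested. With each library left out in turn, 4 log2 fold changes that were not called changed sign, with ranges of -0.094 to 0.02 for Nos3, -0.038 to 0.036 for Ptprb and -0.011 to 0.073 for Flt4 at 1 day, and -0.231 to 0.016 for Sox18 at 6 months. Among the genes named, the filter on low counts left out ended 3 calls at 1 day (Esam, Calcrl and Pdpn) and 7 at 6 months (Erg, Prox1, Apln, Vegfc, Jag1, Dkk2 and Gja4), with adjusted p up to 0.0735. With 1 surrogate variable the calls of Esam and Calcrl at 1 day and of Erg, Apln, Vegfc and Gja4 at 6 months were lost, with adjusted p up to 0.0682, and limma-voom did not call Gja4 (adjusted p = 0.0521). Leaving mitochondrial genes out of the scaling was not run, since none could be named in the tables. No paired analysis was possible because the silica and air lung groups hold different animals; shared animal numbers tie lung only to blood, and the tissues were not compared by a test. Groups of 5 or 6 rats leave changes of a few percent in a low gene such as Prox1, Bmx or Nos3 undetectable at this depth.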
